A study of Mus musculus with 6 samples.

Results

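The genes of glutathione, thioredoxin and peroxide metabolism were examined in mouse cultures labelled as aortic endothelial cells (MAEC) with the genotype Oct4 KO. Oct4 is the pluripotency transcription factor. Female cells were compared with male cells. The set was 38 genes, picked by symbol from a written list of the glutathione, thioredoxin, peroxiredoxin, superoxide dismutase and NRF2 genes. All 38 were among the 54532 genes of the deposited count table, and all 38 were among the 14814 genes that passed the filter on low counts and were tested. The primary cultures had been set up from the aortas of mice with a knockout of OCT4 restricted to endothelial cells. All 6 bulk RNA-seq libraries carried the genotype Oct4 KO, had received no treatment and were grown in F-12 medium with fetal bovine serum, heparin and endothelial growth factors, and 3 came from female and 3 from male mice. The Cre driver, the strain and the age of the mice are not given in the sources used here. Wild-type cells were not analysed here, so each value below compares the sexes within the knockout and does not measure an effect of the knockout. Nothing in the labels tells whether libraries of one sex are independent cultures or mice. The p-values therefore reflect the spread among these libraries alone, and that spread may be technical.

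Glutathione is the main small thiol of the cell. It is built from cysteine, glutamate and glycine, spent by glutathione peroxidases and glutathione transferases to reduce peroxides and to tag electrophiles, and returned to its reduced form by glutathione reductase with electrons from NADPH. The thioredoxin system runs in parallel: thioredoxin reductase passes NADPH electrons to thioredoxin, which recycles the peroxiredoxins, the enzymes that remove most hydrogen peroxide. Many of these genes are switched on by NRF2, a transcription factor that the adaptor KEAP1 marks for degradation until oxidants or electrophiles modify KEAP1. In vascular endothelium these enzymes are studied because superoxide reacts with nitric oxide and limits its signalling.

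Total counts were 19299742 to 23064738 per library, and 3 counts, the most that a count of 0 allows with 95% confidence, equalled 0.123 to 0.154 CPM (counts scaled to the library size). The markers of the labelled cell type were nearly absent, and the knockout was restricted to endothelial cells. Whether the cells that gave this RNA carried the knockout was not tested. Of 12 endothelial markers, 10 were under 1 CPM in every library, Emcn, Cldn5 and Robo4 had 0 counts throughout, and the 12 summed to 4.76 to 7.34 CPM in the female and 4.99 to 5.68 CPM in the male libraries. Fibroblast markers (12 genes) summed to 15406 to 17343 CPM in female and 7319 to 7965 CPM in male libraries, with 7 higher, 4 lower and 1 not called. Smooth muscle markers summed to 62.1 to 66.3 against 156 to 169 CPM, and adipocyte markers to 16.2 to 20.4 against 47.2 to 59.7 CPM. Pericyte markers summed to 445 to 461 against 722 to 762 CPM, a sum carried in male cells by Rgs5 and Pdgfrb, while 4 of the 7 tested were called higher in female cells and 2 lower. Macrophage and leukocyte markers summed to 69.6 to 86.0 and 77.3 to 93.8 CPM with Ptprc at 0 counts, and 6 of 7 erythroid markers had 0 counts. The fibroblast, smooth muscle, pericyte and adipocyte sums did not overlap between the sexes, the endothelial and the macrophage and leukocyte sums did, and their part in the differences below was not tested. In bulk RNA, fewer cells of a type and less RNA per cell cannot be told apart.

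Before any correction for gene length, female cells carried less RNA for most of the peroxide-removing and conjugating enzymes. The cystine importer Slc7a11, thioredoxin and the transcription factor gene Nfe2l2 were higher. Of the 38 genes, 6 were called higher in female cells, 23 were called lower and 9 were not called (edgeR quasi-likelihood test, Benjamini-Hochberg adjusted p under 0.05). Among all genes tested, 60.7% were called, 30.9% higher and 29.8% lower, so the share of these genes called lower was above the background and the share called higher was below it. Their median log2 fold change, female over male, was -0.52, against -0.01 for all genes tested. A difference of at least 2-fold was called for 9 of the 38, 1 higher and 8 lower, where 23.6% of all genes passed that rule. Female and male values were fully separate in 30 of the 38 genes, against 67.1% of all genes. The difference was also visible in the summed RNA: the 38 genes took 0.479% ± 0.0227 of all counts in female cells and 0.764% ± 0.0269 in male cells (SD, n = 3 each). No library of one sex reached the range of the other. Prdx1 alone made up 12.8 to 15.2% of that sum in female and 20.7 to 21.9% in male libraries. With the gene length correction given below, 4 of 9 transferases were called lower and 2 higher. Of the 6 peroxiredoxins, 3 were then lower and 2 higher, against 26.9% lower and 31.4% higher among all genes. The lower calls of the peroxidases (4 of 5) and of the superoxide dismutases with catalase (4 of 4) stayed.

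**Figure D1:**
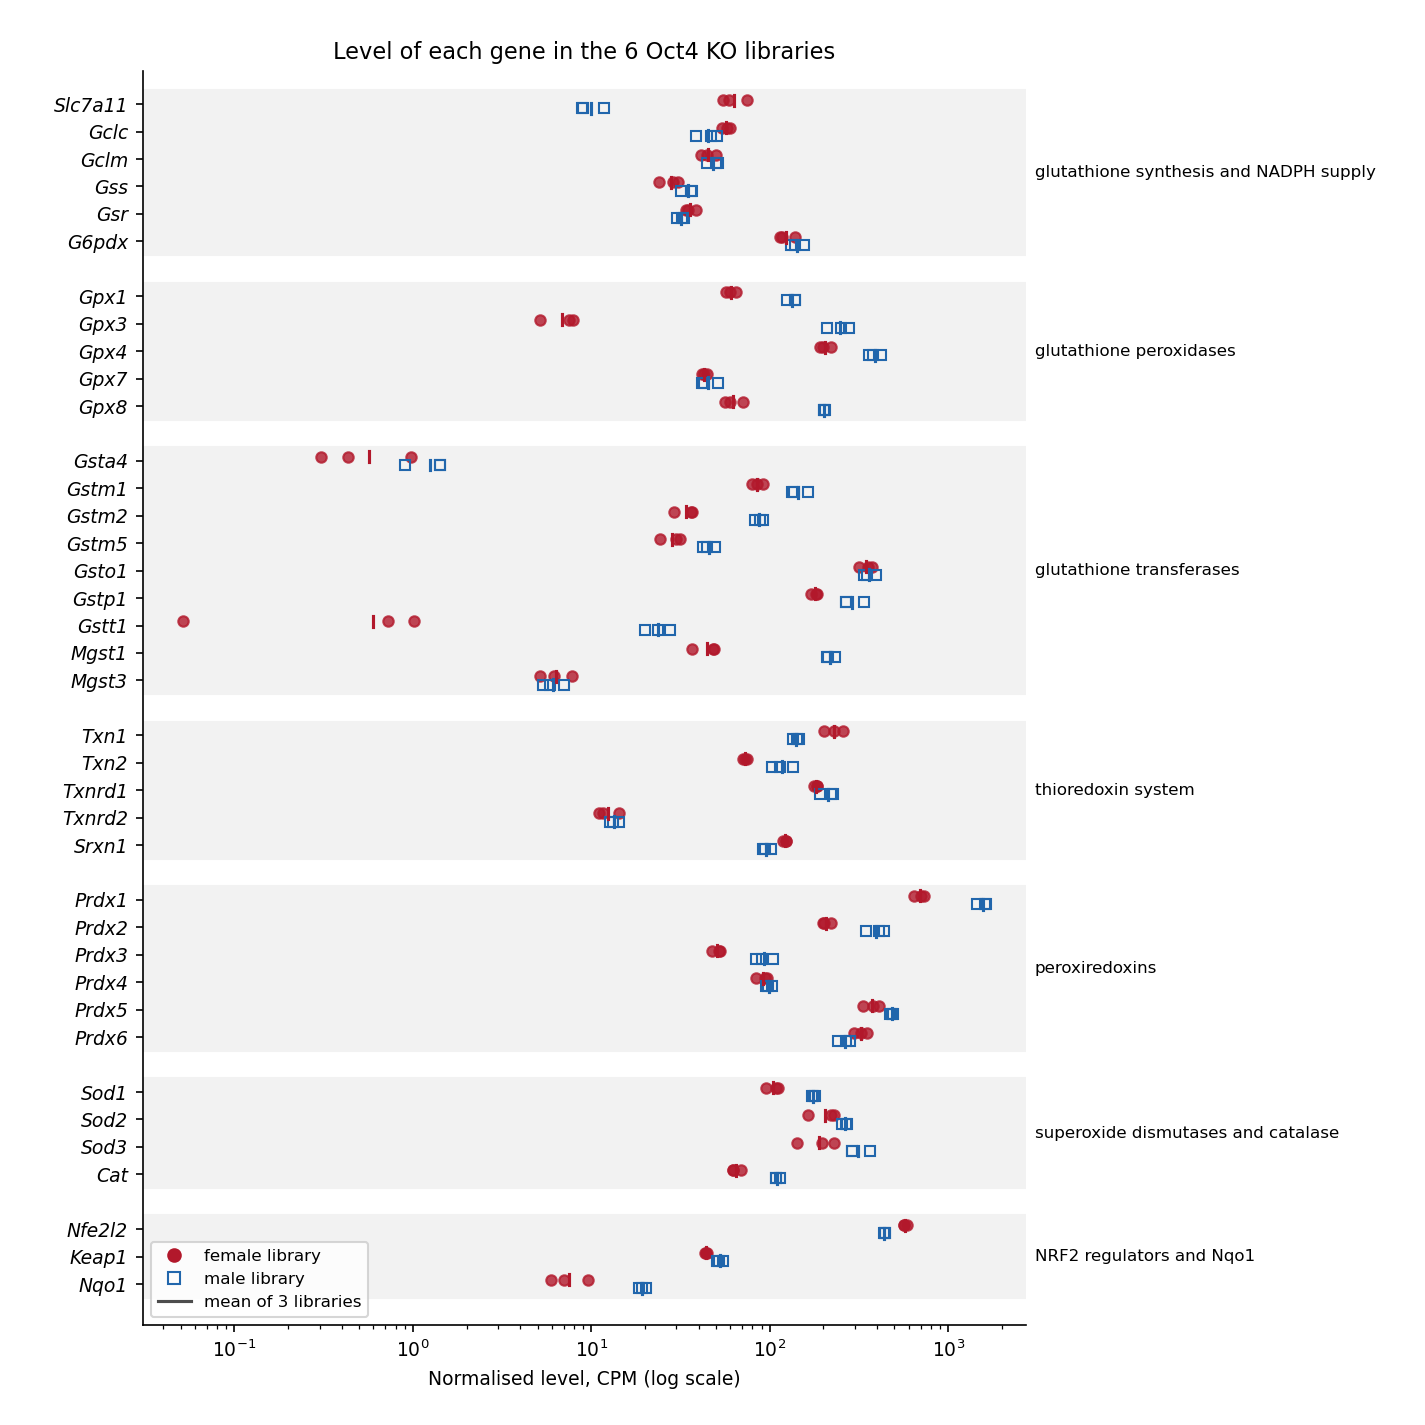
Level of each of the 38 genes in the 6 libraries, in CPM on a log axis; red circles are female libraries, blue squares male libraries, short bars the means of 3, and grey bands the roles. Gpx3, Gstt1 and Slc7a11 show the widest gaps between the sexes, and 30 of the 38 genes show no overlap.

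Among the 38, the genes of NRF2 and KEAP1 each differed by less than 2-fold. Nfe2l2, the gene of NRF2, was at 564, 585 and 563 CPM in the female and 443, 434 and 441 CPM in the male libraries. The sexes did not overlap, and the log2 fold change was 0.38 ± 0.07 (SE, edgeR adjusted p = 0.000197). Keap1, which encodes the adaptor that targets NRF2 for degradation, was at 43.5, 43.7 and 44.5 CPM in female against 50.9, 54.7 and 51.6 CPM in male libraries. Every male library was above every female one (log2 fold change -0.25 ± 0.09, edgeR adjusted p = 0.0179), although the call was lost without female replicate 1 (adjusted p = 0.0655). Nqo1, the quinone reductase often read as the reporter of NRF2 activity, was at 9.61, 7.02 and 5.93 CPM in female and 19.3, 20.1 and 18.6 CPM in male libraries. It went the other way from Nfe2l2 RNA, lower in female cells by 1.36 ± 0.17 on the log2 scale (edgeR adjusted p = 2.84e-06). RNA levels do not measure the amount or the activity of the NRF2 protein.

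NRF2 binds the antioxidant response element, whose core is commonly written TGACNNNGC, and the promoters of several of these genes carry that core in genes that were higher, lower and not called alike. The search covered 300 bases per start site, 250 before and 50 after it, in RefSeq promoters of build GRCm38.p6, on both strands. Of the 38 genes, 33 had a promoter there (40 windows). The core was found in 9 of those 33 (G6pdx, Gclm, Gstm5, Mgst1, Nfe2l2, Prdx1, Sod1, Srxn1 and Txnrd1), against 14% of all 27025 genes and 12.4% of all 32851 windows. A match is a description of these letters and not evidence of binding. The stretches below, each from the gene's own strand with the matched core in capitals (as its reverse complement where the match lies on the opposite strand), show the core before a RefSeq start site of 3 genes lower in female cells, 1 that was not called and 1 that was higher (for Txnrd1 and Mgst1 this start site lies inside the span of the gene in the count table):
Prdx1, chr4:116685446-116685494, + strand, lower: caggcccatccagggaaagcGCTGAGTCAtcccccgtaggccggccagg
Mgst1, chr6:138140451-138140499, + strand, lower: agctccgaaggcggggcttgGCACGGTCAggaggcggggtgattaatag
Txnrd1, chr10:82859094-82859142, + strand, lower: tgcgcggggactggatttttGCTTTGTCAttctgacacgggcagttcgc
Gclm, chr3:122245403-122245451, + strand, not called: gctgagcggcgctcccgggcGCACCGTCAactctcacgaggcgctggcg
Nfe2l2, chr2:75704875-75704913, - strand, higher: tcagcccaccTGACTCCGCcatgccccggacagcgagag
Of the 9 genes with the core, Nfe2l2 and Srxn1 were called higher, Prdx1, Mgst1, Txnrd1, Sod1 and Gstm5 lower, and Gclm and G6pdx were not called. Among all genes tested, 30.9% were called higher and 29.8% lower. Holding the core did not go with a single direction.

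Among the genes that supply and build glutathione, the cystine importer stood apart from the synthesis enzymes. Slc7a11 (ENSMUSG00000027737, mm10 chromosome 3, 49892526 to 50443614) encodes the light chain of system xc-, which imports cystine in exchange for glutamate. Female libraries held 59.3, 74.8 and 55.0 CPM, male libraries 8.92, 8.98 and 11.8 CPM. The lowest female library was above the highest male one, and the log2 fold change of 2.66 ± 0.14 (edgeR adjusted p = 5.51e-11) was the highest of the 38. Its partner Slc3a2, the heavy chain, was at 155 ± 5.32 and 132 ± 11.2 CPM (SD, n = 3 each, log2 fold change 0.23 ± 0.08). The Slc7a11 promoter held no TGACNNNGC core. It held 2 copies of TGATGCAA in opposite orientation, known as amino acid response elements of this gene and bound by ATF4, a transcription factor of the amino acid and stress response. The motif was searched after the values were seen, and it occurs in 0.895% of all windows, 1.03% of all genes and no other of the 33 genes. Both copies are in capitals, the downstream copy reading TTGCATCA on the gene's strand:
Slc7a11, chr3:50443633-50443699, - strand: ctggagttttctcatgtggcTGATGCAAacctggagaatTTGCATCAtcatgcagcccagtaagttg

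The enzymes downstream of cystine each differed by less than 2-fold between the sexes. Gclc, the catalytic subunit of glutamate-cysteine ligase and the limiting step of synthesis, was at 57.3, 60.2 and 54.0 CPM in female and 50.5, 38.5 and 46.6 CPM in male libraries. Its log2 fold change was 0.34 ± 0.10 (edgeR adjusted p = 0.00944), with male replicate 2 the lowest value, and the call was lost without that library (0.22, adjusted p = 0.0581) or with libraries scaled by total counts alone (0.22, adjusted p = 0.0805). Gclm, the modifier subunit that raises the activity of Gclc, was at 41.1, 49.9 and 44.4 against 49.7, 44.4 and 51.0 CPM. The sexes overlapped and Gclm was not called (-0.10 ± 0.10, edgeR adjusted p = 0.401). Gss, glutathione synthetase, was at 27.8 ± 3.40 and 34.7 ± 2.60 CPM (SD, n = 3 each) and was called lower at -0.32 ± 0.11 (edgeR adjusted p = 0.0243). That call was lost without female replicate 2 (adjusted p = 0.109), male replicate 1 (0.0898) or male replicate 2 (0.0518). Glutathione reductase, Gsr, was at 38.6, 33.8 and 34.8 CPM against 32.9, 30.1 and 32.4 CPM. The sexes did not overlap, yet Gsr was not called (0.17 ± 0.10, edgeR adjusted p = 0.164). G6pdx, the glucose-6-phosphate dehydrogenase that opens the pentose phosphate route to NADPH, was at 123 ± 13.8 and 142 ± 12.4 CPM and was not called (edgeR adjusted p = 0.0665). It was called lower without female replicate 2 (adjusted p = 0.00906) or male replicate 3 (0.0385), and with upper quartile (0.0136) or total count scaling (0.00496). Of the 6 genes of this role, 2 were higher (30.9% among all genes), 1 was lower (29.8%) and 3 were not called. The lower count was 0 without male replicate 1 or 2 and 2 without male replicate 3, and the higher count was 1 without male replicate 2. With the gene length correction given below, Gclc (0.44, edgeR adjusted p = 0.00138) and Gsr (0.41, 0.00175) were called higher. Gss (-0.45, edgeR adjusted p = 0.00294) and Gclm (-0.26, 0.0206) were then called lower, and G6pdx was not called (0.991).

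The glutathione peroxidases were called lower in female cells in 4 of 5 cases (29.8% among all genes), with a median log2 fold change of -1.14. Gpx3 (ENSMUSG00000018339, mm10 chromosome 11, 54902453 to 54910377), the secreted selenoprotein that is the main glutathione peroxidase of plasma, was at 7.49, 5.12 and 7.91 CPM in female libraries and 250, 280 and 210 CPM in male libraries. Every male library was far above every female one, by 36.1-fold between the means (log2 fold change -5.17 ± 0.15, edgeR adjusted p = 1.7e-14). Gpx8 (ENSMUSG00000021760, mm10 chromosome 13, 113042753 to 113046410), an endoplasmic reticulum member with cysteine in place of selenocysteine, was at 60.2, 56.4 and 70.6 against 201, 203 and 201 CPM. The male mean was 3.24-fold the female mean, with no overlap (log2 fold change -1.69 ± 0.09, edgeR adjusted p = 5.51e-11). Gpx1, the cytosolic selenoenzyme, was at 57.0, 60.1 and 65.0 CPM in female and 138, 138 and 124 CPM in male libraries. The groups did not overlap (-1.14 ± 0.09, edgeR adjusted p = 5.3e-09). Gpx4, which reduces lipid hydroperoxides in membranes and guards against ferroptosis, was at 203 ± 15.3 and 387 ± 32.5 CPM (SD, n = 3 each) and lower by 0.93 ± 0.09 on the log2 scale (edgeR adjusted p = 7.05e-08). Gpx7, the other endoplasmic reticulum member, did not share this pattern. It was at 43.0, 44.4 and 41.8 CPM in female and 42.0, 51.0 and 42.9 CPM in male libraries, which overlapped (-0.07 ± 0.10, edgeR adjusted p = 0.548). Gpx1, Gpx3 and Gpx4 are selenoproteins, as are the thioredoxin reductases Txnrd1 and Txnrd2. Of these 5, 4 were called lower (29.8% among all genes) and Txnrd2 was not called.

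The glutathione transferases, which attach glutathione to electrophiles, had a median of -0.76. They were called lower in 6 of 9 cases (29.8% among all genes) and higher in none (30.9%). Gstt1 (ENSMUSG00000001663, mm10 chromosome 10, 75783813 to 75798584), of the theta class, was read 15, 1 and 20 times in female libraries and 496, 544 and 484 times in male libraries. In CPM these were 0.724, 0.051 and 1.01 against 23.5, 27.4 and 19.9, with female replicate 2 below the level of 3 counts. The male mean was 39.6-fold the female mean, and the log2 fold change was -5.28 ± 0.34 (edgeR adjusted p = 7.4e-10), or -5.87 without female replicate 3. Mgst1 (ENSMUSG00000008540, mm10 chromosome 6, 138140316 to 138156755), a membrane transferase that also reduces lipid peroxides, was at 47.9, 36.4 and 48.6 CPM in female and 213, 208 and 231 CPM in male libraries. The male libraries were 4.91-fold higher in the mean, with no overlap (-2.29 ± 0.10, edgeR adjusted p = 7.29e-12). Mgst3, another membrane member, did not separate the sexes: it was at 6.18, 5.12 and 7.75 against 5.83, 7.06 and 5.35 CPM (0.07 ± 0.21, edgeR adjusted p = 0.805).

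The mu-class transferases lie in a cluster on chromosome 3 and resemble each other in sequence, so the split of reads between them is uncertain. Gstm2 was at 36.1, 28.9 and 36.5 CPM in female and 82.7, 91.1 and 87.6 CPM in male libraries (-1.36 ± 0.10, edgeR adjusted p = 3.83e-09). Gstm5 was at 29.7, 24.1 and 31.5 against 44.7, 49.4 and 42.0 CPM (-0.67 ± 0.11, edgeR adjusted p = 7.39e-05). Gstm1, the highest of the 3 per kilobase of gene length in both sexes, was at 85.2 ± 6.29 against 145 ± 17.2 CPM (SD, n = 3 each) and lower by 0.76 ± 0.09 on the log2 scale (edgeR adjusted p = 2.51e-06). All 3 were called lower in female cells (29.8% among all genes) without overlap between the sexes (67.1% among all genes). After a correction for gene length the call of Gstm5 was lost (-0.20, edgeR adjusted p = 0.0809). Gstm1 (-0.32) and Gstm2 (-0.97) were still called lower. Gstm7 (-1.78) and Gstm4 (-0.54), which are outside the 38, were called lower too, the latter not after a correction for gene length (-0.15, adjusted p = 0.487). Gstp1, the pi-class enzyme, was at 184, 181 and 171 CPM in female and 267, 337 and 266 CPM in male libraries (-0.70 ± 0.09, edgeR adjusted p = 5.34e-06), and its near-identical copy Gstp2 makes its count uncertain too. The call of Gstp1 was also lost after the length correction (-0.10, edgeR adjusted p = 0.403). Gsto1, the omega-class enzyme that reduces dehydroascorbate, overlapped between the sexes at 355, 315 and 372 against 350, 393 and 337 CPM (-0.05 ± 0.09, edgeR adjusted p = 0.633). Gsta4, which conjugates the lipid aldehyde hydroxynonenal, was near the detection limit at 0.571 ± 0.355 and 1.25 ± 0.296 CPM and was not called (edgeR adjusted p = 0.0785), though it was without female replicate 2 (-1.73, adjusted p = 0.0278).

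In the thioredoxin system the cytosolic and the mitochondrial thioredoxin moved in opposite directions. Of the 5 genes of this role, 2 were called higher (30.9% among all genes), 2 lower (29.8%) and 1 was not called. Txn1, the cytosolic thioredoxin, was at 230 ± 28.6 CPM in female and 141 ± 5.76 CPM in male cells (SD, n = 3 each). Its lowest female library, at 201 CPM, was above the highest male one, at 146 CPM (log2 fold change 0.71 ± 0.09, edgeR adjusted p = 3.72e-06). Txn2, the mitochondrial thioredoxin, was at 72.6 ± 1.85 against 117 ± 16.7 CPM, lower by 0.69 ± 0.10 on the log2 scale (edgeR adjusted p = 9.46e-06). Txnrd1, the cytosolic reductase that recharges Txn1, was at 183, 184 and 177 CPM in female and 221, 192 and 227 CPM in male libraries. The difference was small before the length correction (-0.23 ± 0.08, edgeR adjusted p = 0.0203). The call was lost without female replicate 1 (0.0573), female replicate 3 (0.0594), male replicate 1 (0.0817) or male replicate 3 (0.0820). Leaving out any 1 of these takes the lower count of this role from 2 to 1. With the length correction given below, Txnrd1 was called lower at -0.45 (edgeR adjusted p = 3.67e-05). Txnrd2, the mitochondrial reductase, was at 12.3 ± 1.69 and 13.5 ± 0.816 CPM and was not called (edgeR adjusted p = 0.482). Srxn1, sulfiredoxin, which restores over-oxidised peroxiredoxins, was at 123, 118 and 123 CPM in female against 91.6, 94.3 and 101 CPM in male libraries. It was called higher without overlap (0.34 ± 0.08, edgeR adjusted p = 0.00116).

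Peroxiredoxins were called lower in 4 of 6 cases (29.8% among all genes) and higher in 1 (30.9%), with a median of -0.62. Prdx1 (ENSMUSG00000028691, mm10 chromosome 4, 116685544 to 116700822), the main cytosolic form, took more counts than any other of the 38 in every library. It was at 644, 732 and 700 CPM in female and 1609, 1625 and 1451 CPM in male libraries, with no overlap (log2 fold change -1.17 ± 0.08, edgeR adjusted p = 1.51e-09). Prdx2, its cytosolic relative, was at 207 ± 12.2 and 396 ± 45.3 CPM (-0.94 ± 0.09, edgeR adjusted p = 1.17e-07), and mitochondrial Prdx3 at 50.5 ± 2.82 and 92.8 ± 10.2 CPM (-0.88 ± 0.09, edgeR adjusted p = 5.02e-07). Prdx5, found in mitochondria and peroxisomes, differed less, at 381, 332 and 412 against 484, 489 and 472 CPM (-0.36 ± 0.08, edgeR adjusted p = 0.00121). Its call was lost after the correction for gene length (-0.05, edgeR adjusted p = 0.583). Prdx6, the member that takes its electrons from glutathione and not from thioredoxin, was the only peroxiredoxin called higher, at 323 ± 26.9 and 262 ± 20.4 CPM (0.30 ± 0.08, edgeR adjusted p = 0.00556). With libraries scaled by total counts alone, that call was lost (0.19, adjusted p = 0.0681). Prdx4, the endoplasmic reticulum form, overlapped between the sexes at 94.1, 83.9 and 96.7 against 103, 97.9 and 94.6 CPM (-0.10 ± 0.08, edgeR adjusted p = 0.297), and was called lower with total count scaling (-0.22, adjusted p = 0.0334).

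All 3 superoxide dismutases and catalase were called lower in female cells (29.8% among all genes), with a median of -0.74. Sod1, the cytosolic copper-zinc enzyme, was at 104 ± 8.62 and 175 ± 4.38 CPM (-0.74 ± 0.08, edgeR adjusted p = 6.37e-07). Catalase, Cat, which breaks down hydrogen peroxide in peroxisomes, was at 64.3 ± 4.20 and 110.4 ± 3.76 CPM (-0.78 ± 0.08, edgeR adjusted p = 3.94e-07). The secreted Sod3, which binds to the vessel wall matrix, was at 188 ± 43.5 and 314 ± 43.1 CPM (-0.73 ± 0.13, edgeR adjusted p = 0.000147). Sod2, the mitochondrial manganese enzyme, was at 229, 164 and 221 CPM in female and 270, 254 and 267 CPM in male libraries, and its size depended on the low value of female replicate 2 (-0.37 ± 0.10, edgeR adjusted p = 0.00567, and -0.23, adjusted p = 0.0214, without that library). By compartment, both secreted enzymes (Gpx3 and Sod3) were called lower, against 29.8% of all genes. So were 3 of the 4 proteins listed as mitochondrial (Txn2, Prdx3 and Sod2, but not Txnrd2). That list leaves out Prdx5, which was also called lower. Of the 3 proteins of the endoplasmic reticulum, Gpx8 was lower and Gpx7 and Prdx4 were not called. The 2 X-linked genes, G6pdx and Prdx4, were both not called.

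Levels were compared between genes as CPM per kilobase of gene length. This scaling does not take out the length trend between the sexes given below, so places are not corrected for it. In female cells Gstp1 (236 ± 9.21 CPM per kilobase), Prdx1 (227 ± 14.7) and Txn1 (219 ± 27.2) led and did not differ beyond their spread. In male cells Prdx1 (513 ± 31.6) stood above Gstp1 (383 ± 53.4), followed by Prdx5 (225 ± 4.19) and Gpx4 (224 ± 18.8), which did not differ beyond their spread. Gpx3 went from place 35 of 38 in female cells (3.77 ± 0.828) to place 7 in male cells (136 ± 19.2). Mgst1 went from place 23 to place 11, Gstt1 from the last place in female cells to place 28, and Srxn1 from place 14 to place 24. Slc7a11 was last in male cells (0.711 ± 0.119) and at place 34 in female cells (4.53 ± 0.748).

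**Figure D2:**
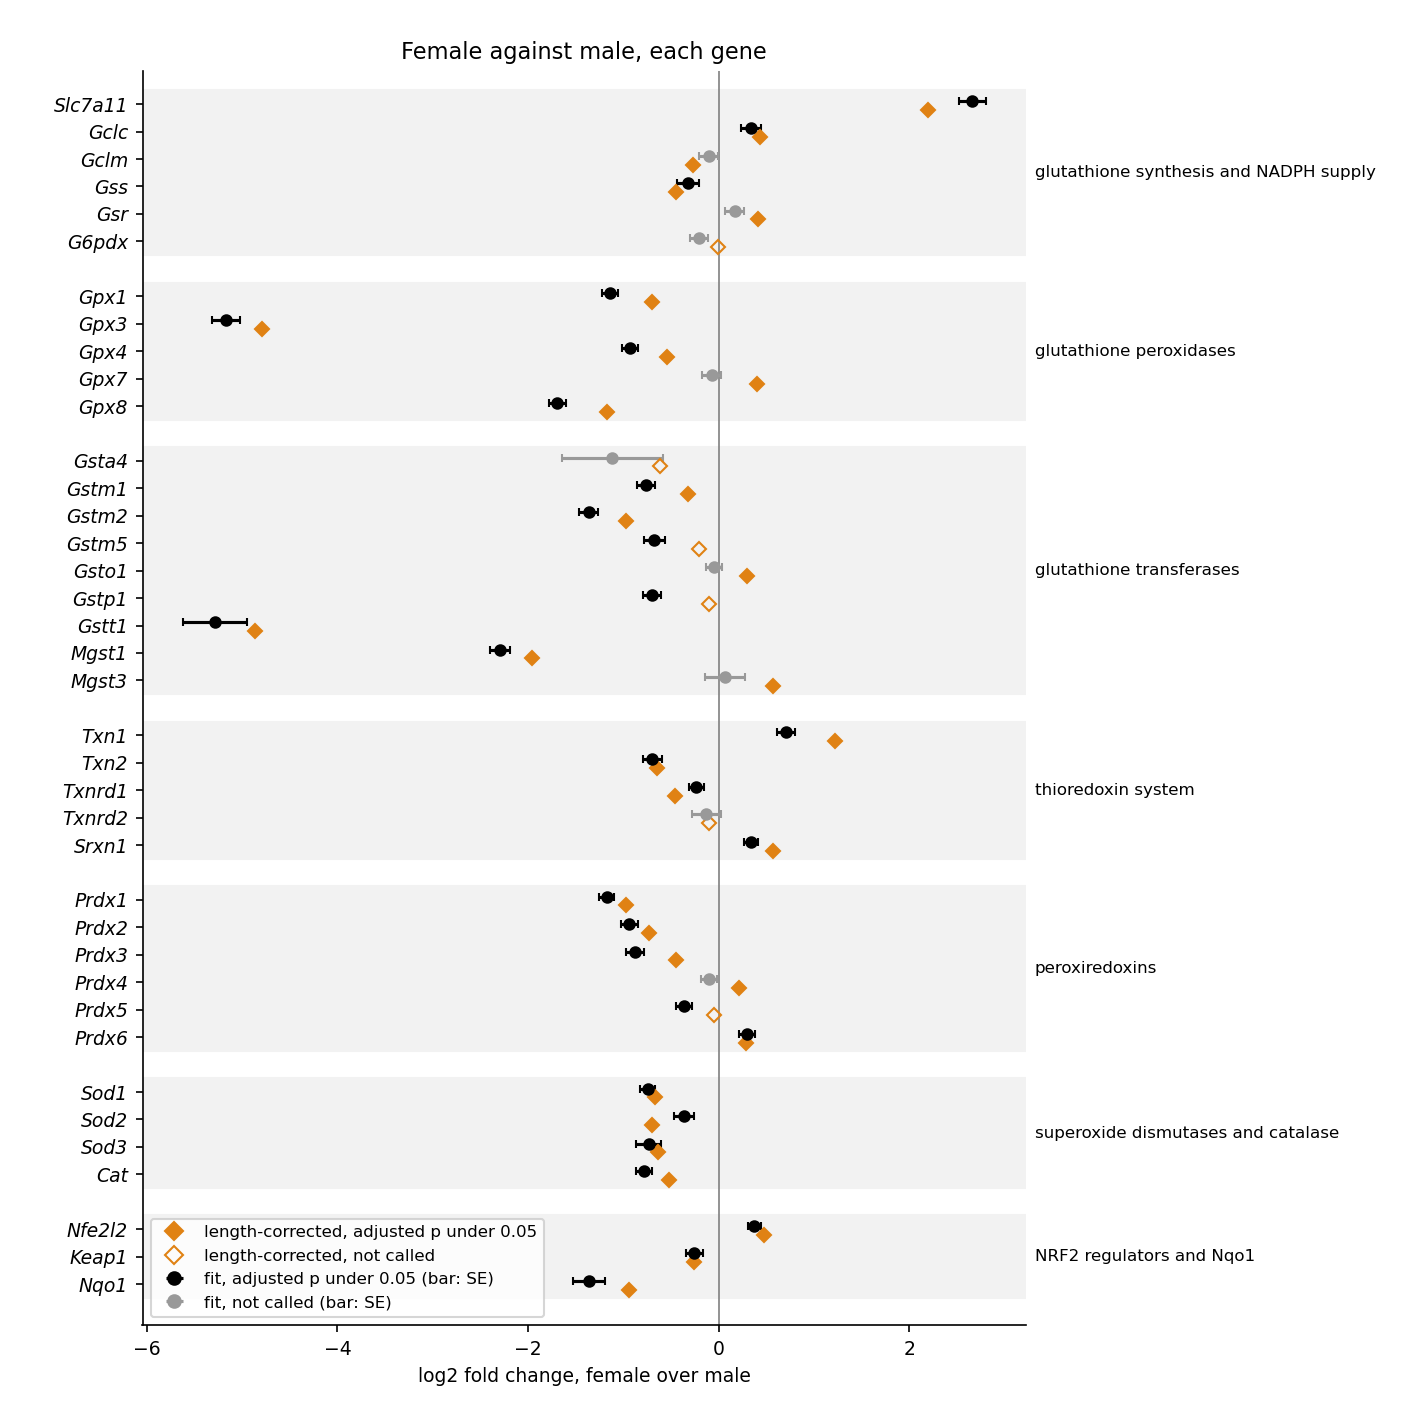
Log2 fold change, female over male, of the 38 genes by role; circles with bars are the estimates with their SE (black where the adjusted p is under 0.05, grey where not) and diamonds the estimates after the gene length correction (filled where called). The peroxidases, transferases, and superoxide dismutases with catalase hold no black circle to the right of 0.

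Gene length moved with the comparison. Log2 CPM rose with log2 gene length in the female libraries relative to the mean of all 6 (slopes 0.136, 0.185 and 0.0708) and fell in the male libraries (-0.130, -0.159 and -0.103) across 10812 genes. The 38 genes were short, with a median length of 2376 bases against 4012 for all genes tested, and 25 of them lay in the 2 shortest of 5 length classes of equal size. In the shortest class (57 to 2005 bases), 38.1% of all genes were called lower and 14.5% higher, with a median of -0.34. There, 11 of the 16 antioxidant genes were lower and 1 was higher, with a median of -0.90, and 12 of the 16 were below the median of their class. In class 2 (2006 to 3299 bases), 5 of 9 were lower and 1 higher, against 38.5% and 19.8% of all genes, and the medians were -0.36 and -0.20. Class 3 (3300 to 4798 bases) held 7 of the genes, 4 lower and 2 higher, against 31.8% and 27.3% of all genes, with medians of -0.25 and -0.05. In class 4 (4799 to 7104 bases), 2 of 4 were lower and 1 higher, against 23.5% and 38.4%. Of the 2 genes over 7104 bases, Slc7a11 was higher and Sod2 lower, where 54.5% of all genes were higher and 17.0% lower.

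A smooth trend on gene length, taken out of each library, left the largest differences above 2-fold and changed the size or the call of many others. After it, 11 of the 38 were called higher and 21 lower, with a median of -0.38, against 31.4% higher and 26.9% lower and a median of 0.05 among all genes. Gpx3 (-4.80), Gstt1 (-4.87), Mgst1 (-1.96), Gpx8 (-1.17) and Slc7a11 (2.20) remained more than 2-fold apart, while Prdx1 (-0.97), Gstm2 (-0.97), Nqo1 (-0.94) and Gpx1 (-0.70) stayed called below 2-fold. The calls of Gstm5 (-0.20, adjusted p = 0.0809), Gstp1 (-0.10, adjusted p = 0.403) and Prdx5 (-0.05, adjusted p = 0.583) were lost. Gsr (0.41, adjusted p = 0.00175) and Mgst3 (0.57, adjusted p = 0.0212) were then called higher and Gclm lower (-0.26, adjusted p = 0.0206). Gpx7 (0.40), Gsto1 (0.30) and Prdx4 (0.22) changed sign and were then called higher. Txn1 moved from 0.71 to 1.23, above 2-fold. The source of the length trend was not tested.

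**Figure D3:**
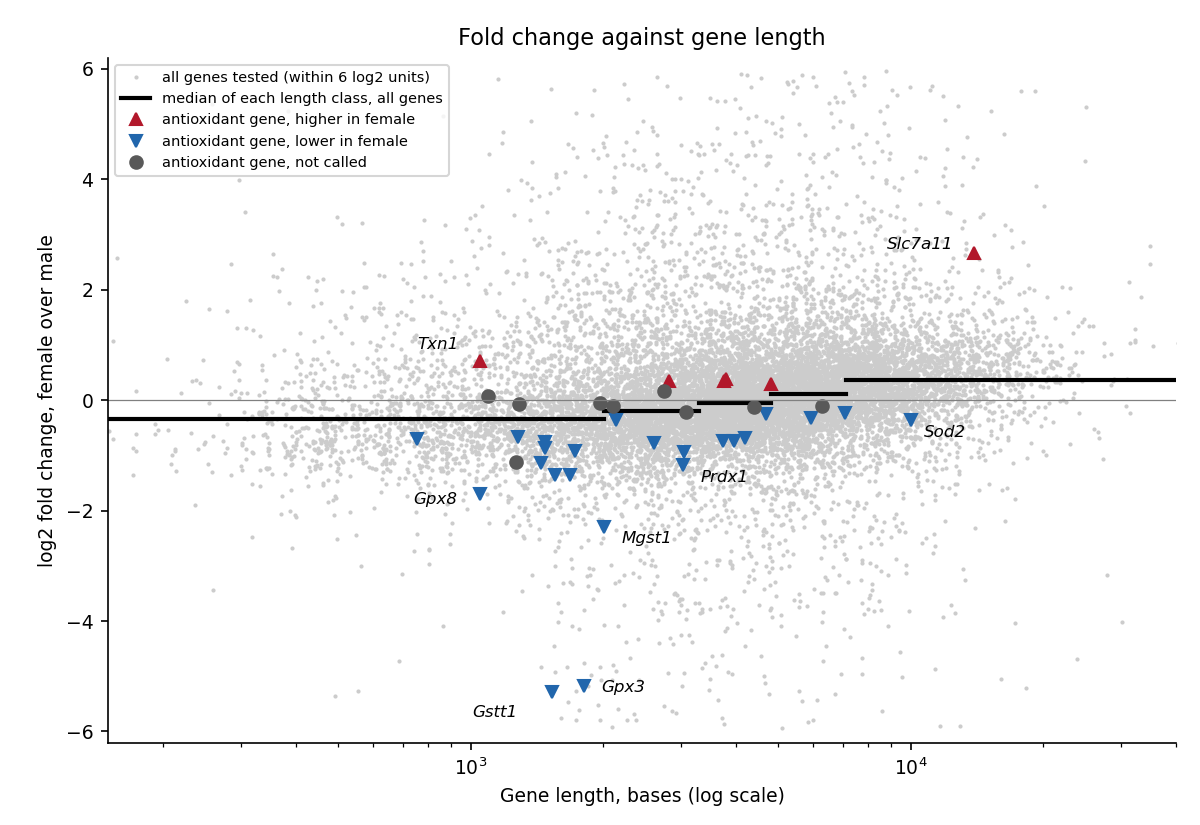
Log2 fold change, female over male, against gene length in bases (log axis); grey points are tested genes within the plotted range, black bars the median of each of 5 length classes, and coloured symbols the antioxidant genes by call. The black medians climb from -0.34 in the shortest to 0.37 in the longest class. Of the 16 antioxidant genes in the shortest class, called or not, 12 lie below its bar.

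Other genes of the same pathways, taken from 9 written lists, were read in the same fit, in which 30.9% of all genes were called higher and 29.8% lower, with a median of -0.01. Of 19 other NRF2 target genes tested, 13 were called lower and 1 higher; the other 5 did not pass, and the median was -0.52. Aldh3a1, an aldehyde dehydrogenase, was at 2.22 ± 1.10 CPM in female and 102 ± 15.4 CPM in male cells (SD, n = 3 each), with a fitted difference of -5.53 ± 0.20 (edgeR adjusted p = 4.15e-13). Ephx1, the microsomal epoxide hydrolase, was at 13.6 ± 1.40 and 147 ± 9.62 CPM (-3.43 ± 0.10), and Abcc4, an efflux pump, at 6.43 ± 1.32 and 59.3 ± 4.92 CPM (-3.20 ± 0.14). Hmox1, the haem oxygenase that both NRF2 and its repressor BACH1 control, was at 112 ± 7.64 and 203 ± 6.70 CPM (-0.85 ± 0.08, edgeR adjusted p = 8.84e-08). Of 10 other regulators of the pathway tested, 4 were higher and 4 lower, or 2 lower without female replicate 1 or male replicate 3. The small MAF partner gene Mafg was at 217 ± 13.4 and 107 ± 6.05 CPM (1.02 ± 0.08), the NRF2 relative Nfe2l1 at 450 ± 11 and 287 ± 24.9 CPM (0.65 ± 0.08) and Bach1 at 66.0 ± 9.11 and 43.6 ± 8.19 CPM (0.59 ± 0.13). Rbx1, a subunit of the ligase that KEAP1 recruits, was lower (-0.48 ± 0.09).

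Of 12 further transferases tested, 3 were higher (30.9% among all genes), 5 lower (29.8%) and 4 not called. Gsta3, an alpha-class member, had 2, 1 and 2 counts in the female libraries against 12.6 ± 0.912 CPM in male cells (SD, n = 3), and Gstt3, next to Gstt1 in class, was lower too (-2.12 ± 0.25). Ptges, the glutathione-dependent prostaglandin E synthase, was at 878 ± 32.5 and 182 ± 5.74 CPM (2.27 ± 0.08), and Mgst2 at 23.4 ± 2.07 and 6.87 ± 1.31 CPM (1.77 ± 0.16). Of 16 genes of glutathione turnover, glutaredoxins and glyoxalases, 10 were lower (29.8% among all genes) and 4 higher (30.9%), and 6 were lower (26.9%) and 3 higher (31.4%) after the length correction. Ggct, which degrades gamma-glutamyl peptides, was at 4.34 ± 0.109 and 32.4 ± 0.457 CPM (-2.90 ± 0.14). Ggt5, a gamma-glutamyl transferase, was at 12.2 ± 0.674 and 40.4 ± 1.28 CPM (-1.72 ± 0.11), and Glo1, which uses glutathione to clear methylglyoxal, at 48.2 ± 2.51 and 135 ± 7.40 CPM (-1.49 ± 0.08). Cndp2, a dipeptidase that can release cysteine, was higher at 165 ± 4.94 and 67.4 ± 9.20 CPM (1.29 ± 0.09).

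Of 14 genes of cysteine and methionine supply, 5 were higher and 4 lower, shares near those of all genes (30.9% and 29.8%). Cdo1, which oxidises cysteine and so spends it, was at 26.0 ± 1.62 and 5.73 ± 0.424 CPM (2.18 ± 0.14), and the methionine adenosyltransferase Mat2a at 298 ± 27.8 and 140 ± 3.35 CPM (1.08 ± 0.08). Ahcy (-0.95 ± 0.09) and Suox (-1.02 ± 0.14), which act on homocysteine precursors and on sulfite, were lower. Cbs, the first enzyme of the route from homocysteine to cysteine, had 0 counts in every female library and a mean of 0.830 CPM in male cells, at least 5.52-fold higher against the mean level of 3 counts per female library. The 15 tested enzymes that make NADPH, with 4 higher and 4 lower, were also near the shares of all genes. The mitochondrial folate enzymes Mthfd2 (43.6 ± 12.1 and 14.8 ± 0.333 CPM, 1.56 ± 0.16) and Aldh1l2 (16.8 ± 4.65 and 4.19 ± 1.05 CPM, 2.00 ± 0.22) were higher, and the cytosolic folate enzyme Mthfd1 (-1.07 ± 0.11) and Pgls (-0.62 ± 0.08), of the pentose phosphate route, were lower.

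Of 23 other thioredoxin-fold and methionine sulfoxide reductase genes, 6 were higher and 11 lower, against 30.9% and 29.8% of all genes. After the length correction, 8 were higher (31.4% among all genes) and 8 lower (26.9%). The membrane thioredoxin-like genes Tmx3 (1.70 ± 0.10), Tmx4 (1.09 ± 0.09) and Tmx1 (0.88 ± 0.09) were higher, and Nxn, nucleoredoxin, was lower at 35.3 ± 5.04 and 123 ± 3.09 CPM (-1.80 ± 0.10). Of 19 genes of selenoprotein synthesis and other selenoproteins, 4 were higher and 8 lower, or 5 lower without male replicate 1, and 60.7% of all genes were called in either direction. Sepsecs, which makes the selenocysteine carried by its tRNA, was higher (0.82 ± 0.14), as were Selenon (0.72 ± 0.08) and Selenoi (1.18 ± 0.09), while Selenos was lower at 42.4 ± 2.20 and 115 ± 2.06 CPM (-1.44 ± 0.08). Of 10 tested genes of NADPH oxidases and other oxidant sources, 5 were higher (30.9% among all genes) and 2 lower (29.8%), or 1 lower without female replicate 1, female replicate 2 or male replicate 1. Xdh, xanthine dehydrogenase, was at 1112 ± 56.1 and 788 ± 42.4 CPM (0.50 ± 0.08), and Maob was at 13.4 ± 0.578 and 6.63 ± 0.237 CPM (1.02 ± 0.15). Cybb, the NADPH oxidase of phagocytes, was low at 2.76 ± 0.30 and 0.243 ± 0.228 CPM (3.52 ± 0.56, or 4.55 without male replicate 2), and Noxa1, an oxidase activator, lower at 0.318 ± 0.0819 and 3.18 ± 0.705 CPM (-3.30 ± 0.44).

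**Figure D4:**
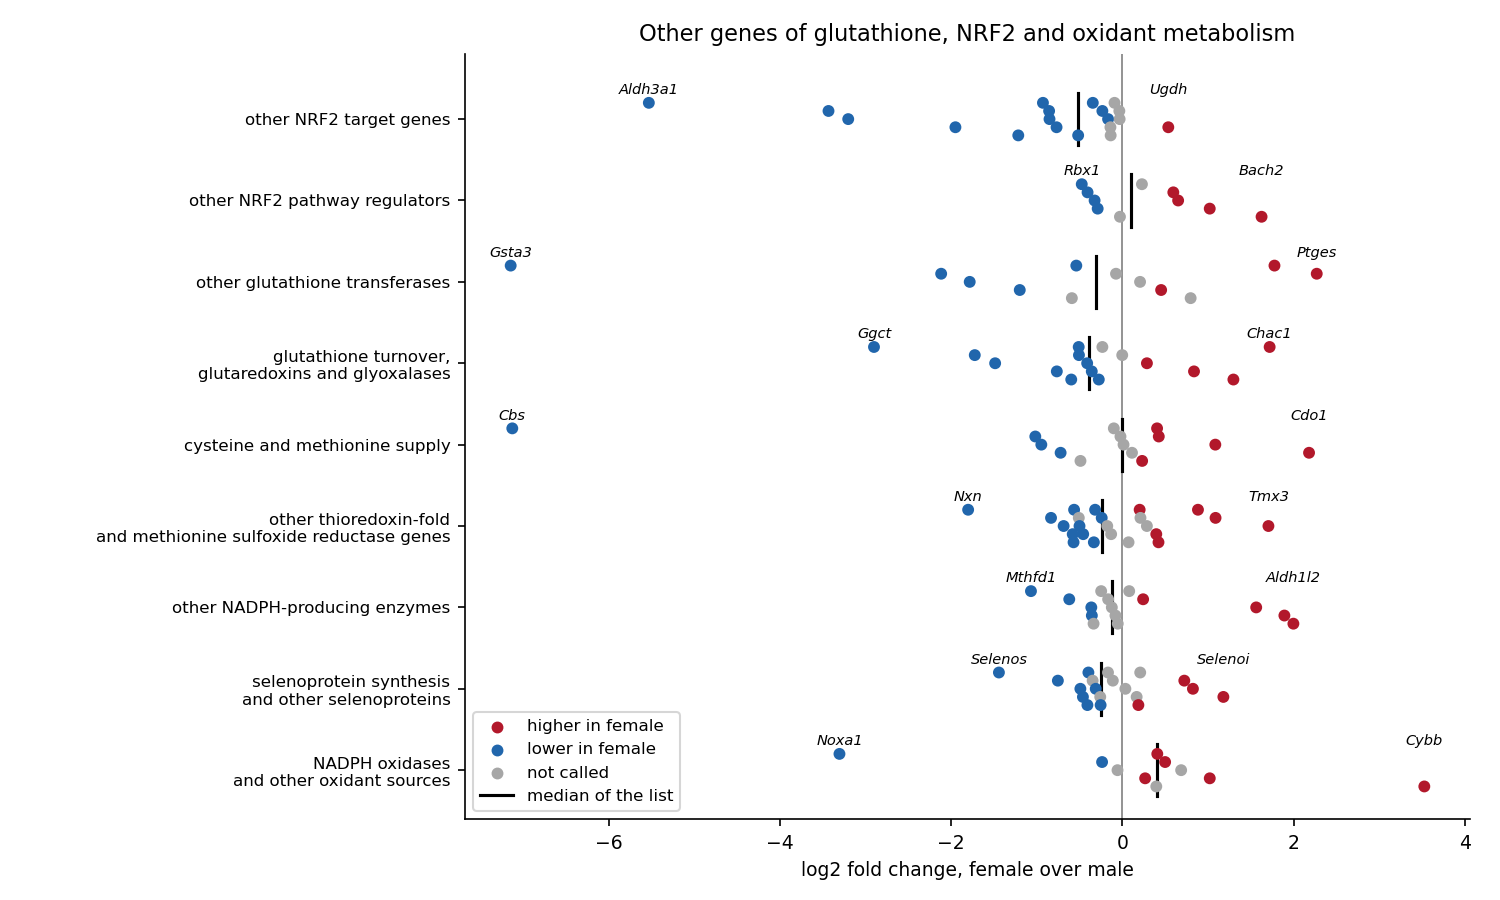
Log2 fold change, female over male, of the other pathway genes in 9 lists; each point is a tested gene (red higher, blue lower, grey not called), vertical bars are list medians, and the highest and lowest called gene of each list is labelled. The NRF2 targets lie mostly left of 0 (13 lower, 1 higher), and the point of Cbs is a fitted value for a gene with 0 female counts, which depends on the prior count.

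The strand setting of the counting was not stated, so for some of the 38 genes reads may not be told apart from those of an opposite-strand gene of at least 10 CPM. Ikbkg over G6pdx (0.53) and Cfap43 over Gsto1 (0.49) were called higher where the antioxidant gene was not called. Scaf4 over Sod1 was higher (0.39) where Sod1 was lower. Neighbours that moved with the gene were Trmt112 over Prdx5 (-0.67), and Junb and Rnaseh2a over Prdx2 (-0.42 and -0.62). Acss2 over Gss was not called (-0.37, edgeR adjusted p = 0.0535).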

How the data were processed

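Polyadenylated RNA was sequenced in 6 libraries after random hexamer priming, per the labels' protocols, which do not say whether strand was marked. Per the submitters' processing notes, the authors aligned reads with HISAT2 2.0.5 to mm10 and counted them with featureCounts 1.5. The treatment of multi-mapping reads was not stated there. The deposited values were raw counts per gene, whole numbers that were not normalised. Within a sex, chi-square over its degrees of freedom was 7.41 to 16.0 between libraries, above sampling noise. The sexes were compared with edgeR 4.0.16 in R 4.3.3 (filterByExpr, TMM scaling, glmQLFTest with sex as its single term, two-sided, Benjamini-Hochberg over 14814 genes), tested on simulated data. CPM are over the effective library size. SE was derived from the size of each log2 fold change and its F statistic, and is optimistic at low counts. Limits from 3 counts cover counting error only. The 38 genes, the lists and the rule for named genes were chosen with earlier results of these data known. By that rule, values per library are given for genes called with a log2 difference of at least 1, for genes whose call or direction changed with the length correction and for 8 core genes, and each list names up to 4 genes with the smallest adjusted p; Slc3a2, Gstm4, Gstm7, Cbs, Cyba and other list genes whose sign changed were named after their values were seen. An overlapping gene is not reported here. Alternatives were other scalings, DESeq2 1.42.0, limma-voom (limma 3.58.1), no filter, protein-coding genes, length and GC corrections, a replicate block and leaving out each library. The length trend was a lowess (span 0.3) on genes of at least 5 CPM.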

Additional observations from a re-analysis of the deposited data

How the results depend on the processing

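No antioxidant gene that was called changed sign under any alternative run, and no call among the 38 changed with DESeq2, DESeq2 size factors, limma-voom, no low-count filter or protein-coding genes only. The count called higher went from 6 to 11 with the gene length correction, with length and GC together and with the replicate block plus length. Leaving out 1 library gave 5 to 6 higher and 21 to 24 lower. For all genes the range was 4220 to 4542 higher and 4016 to 4299 lower. Total counts alone shifted the median of all genes from -0.01 to -0.13 and ended the calls of Gclc (0.22) and Prdx6 (0.19), while Prdx4 (-0.22) and G6pdx (-0.32) were then called lower. Upper quartile scaling also called G6pdx lower (-0.28). By list, total counts moved the higher count of cysteine and methionine supply from 5 to 3, of glutathione synthesis from 2 to 1 and of peroxiredoxins from 1 to 0, and the lower count of NADPH enzymes from 4 to 8. Lower calls in glutathione synthesis went from 1 to 2 with upper quartile, total count and length scaling. The length correction moved the higher count of peroxidases from 0 to 1, transferases from 0 to 2, peroxiredoxins from 1 to 2, other NRF2 targets from 1 to 2 and selenoprotein genes from 4 to 7, and the lower count of other NRF2 regulators from 4 to 2, glutathione turnover from 10 to 6 and oxidant sources from 2 to 1. It also moved the lower count of transferases from 6 to 4 and of peroxiredoxins from 4 to 3, and the higher count of glutathione synthesis from 2 to 3. Among the other thioredoxin-fold and methionine sulfoxide reductase genes, it moved the higher count from 6 to 8 and the lower count from 11 to 8. Lower selenoprotein calls went from 8 to 5 with length and GC.

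Within the 38, signs changed only among genes that were not called. Of the list genes outside them, Cyba went from called lower (-0.24) to called higher (0.29) with the length correction, and Selenoh (0.05), Txnl1 (0.03), Abcc5 (-0.08) and Sesn3 (-0.10) changed sign and lost their calls. Gpx7 (-0.07) became 0.40 with length, 0.45 with length and GC and 0.40 with block and length, and -0.13 to 0.0037 with 1 library left out. Gsto1 (-0.05) became 0.30, 0.35 and 0.30, and -0.10 to 0.019. Prdx4 (-0.10) became 0.22, 0.21 and 0.22. Mgst3 (0.07) became -0.011 (upper quartile scaling), -0.048 (total counts) and -0.10 to 0.20 with 1 library left out. G6pdx (-0.21) became 0.057 with length and GC. The cause was not tested.

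Replicate numbers are shared by the sexes in the labels but did not pair the libraries (correlation of deviations -0.02, -0.10 and -0.15 for the 3 same-numbered pairs). With the number as a replicate block, 6 of the 38 were higher and 23 lower, with no call changed, and all genes gave 4360 higher and 4165 lower.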
